A study of Mus musculus with 14 samples.

Results

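Cholesterol synthesis and its control by sterols were followed through 26 mouse genes, chosen by name and found in all 13 bulk RNA-seq libraries among 35171 gene rows, and in 1 single-cell library among 28692 genes. The list holds 18 enzymes of the synthesis pathway, 5 regulators and 3 genes of sterol transport. Hepatic stellate cells, pericytes that wrap the liver sinusoid and store vitamin A, were cultured with 10 µM UDP-glucose for 24 h in 3 libraries and without it for 24 h in 3 control libraries. UDP-glucose is a nucleotide sugar that activates the receptor P2Y14 from outside the cell; the titles of these libraries write UDP and their descriptions UDP-glucose. Both kinds of culture carry the strain label Balbc, were plated in 10% serum for 5 h and then kept in 0.1% serum, and no sort is described for them. Quiescent stellate cells, never plated, made up 4 libraries and were sorted on vitamin A and on TdTom, a red reporter switched on by Cre under the Lrat promoter, in C57BL/6J mice labelled LratCre+ and TdTom+. Whole uninjured liver of the same strain label made up 3 libraries. All stellate cells were first freed by perfusion and digestion and enriched on a density gradient. The single-cell library came from perfused and digested undamaged liver with the strain label C57BL/6. Whether libraries of a group stem from different animals or cultures is not given in the labels. The p-values therefore reflect the spread among these libraries alone, which may be technical.

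Cells build cholesterol from acetyl-CoA through mevalonate, isoprenoids and squalene. When membranes of the endoplasmic reticulum hold enough sterol, the Insig proteins keep Scap there together with the transcription factors SREBP1 and SREBP2. When sterol falls, Scap carries them to the Golgi, where proteases release the active part that switches on the enzyme genes and Insig1 itself. Excess sterol acts the other way, through the LXR receptors, which raise the exporters Abca1 and Abcg1. Hepatocytes are known as the main sterol makers of the liver, and stellate cells as the cells that store retinyl esters and lay down scar matrix once activated.

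The start-site windows of 4 members are printed because SREBP is known to act with NF-Y at such sites. These 4 were picked by their bulk result. As given below, Hmgcs1, Msmo1 and Insig1 were lower in quiescent stellate cells than in liver and Abca1 was higher. The rise of Abca1 depended on the scaling. Each window runs 5′ to 3′ on the gene's own strand over 250 bases before and 50 after the RefSeq start (GRCm38.p6). Capitals mark matches, on either strand, to the sterol regulatory element core TCACNCCAC or its looser form CACNCCA, which every TCACNCCAC contains, to the NF-Y box CCAAT and to the palindromic E-box CACGTG, with a match on the other strand printed as its reverse complement. Hmgcs1 is at chr13:119690101-119690400 (plus strand), Msmo1 at chr8:64733529-64733828 (minus), Insig1 at chr5:28071162-28071461 (plus) and Abca1 at chr4:53159846-53160145 (minus).
Hmgcs1: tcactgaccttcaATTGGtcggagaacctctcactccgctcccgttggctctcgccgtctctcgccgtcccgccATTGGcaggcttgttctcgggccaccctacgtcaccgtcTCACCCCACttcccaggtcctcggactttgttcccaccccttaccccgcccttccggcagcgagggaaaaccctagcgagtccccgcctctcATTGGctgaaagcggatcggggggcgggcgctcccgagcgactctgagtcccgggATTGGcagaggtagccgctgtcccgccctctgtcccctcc
Msmo1: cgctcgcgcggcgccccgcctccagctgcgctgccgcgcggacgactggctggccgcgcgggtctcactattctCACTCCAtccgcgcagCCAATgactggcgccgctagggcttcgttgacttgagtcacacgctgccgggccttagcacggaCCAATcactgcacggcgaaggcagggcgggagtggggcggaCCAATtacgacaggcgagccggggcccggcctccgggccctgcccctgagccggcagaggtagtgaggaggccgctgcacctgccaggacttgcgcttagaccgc
Insig1: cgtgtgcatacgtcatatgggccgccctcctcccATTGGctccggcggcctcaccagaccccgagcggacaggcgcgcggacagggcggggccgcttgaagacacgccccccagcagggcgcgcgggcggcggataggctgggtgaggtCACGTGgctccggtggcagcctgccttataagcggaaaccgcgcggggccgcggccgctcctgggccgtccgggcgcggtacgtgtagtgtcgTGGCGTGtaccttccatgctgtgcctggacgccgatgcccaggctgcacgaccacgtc
Abca1: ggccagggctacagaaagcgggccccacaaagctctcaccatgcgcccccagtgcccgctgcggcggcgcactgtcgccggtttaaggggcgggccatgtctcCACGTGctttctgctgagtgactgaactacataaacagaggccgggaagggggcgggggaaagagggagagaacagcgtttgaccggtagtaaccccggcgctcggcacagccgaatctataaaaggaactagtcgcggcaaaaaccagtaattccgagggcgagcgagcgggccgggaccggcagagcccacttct

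RefSeq windows were at hand for 21 of the 26 members, 29 windows in all. The core TCACNCCAC was found in 1 of these genes, Hmgcs1, with its first base at position −137 relative to the start, and in 1.44% of all genes with a window. The looser CACNCCA was found in 6 of 21 members, against 20.6% of all genes. The CCAAT box was found in 18 of 21 members and in 14 of the 15 enzymes with a window, against 41.1% of all genes. By window, it was found in 19 of 29 member windows and in 37.4% of all windows. In the printed sequences it occurs 4 times in Hmgcs1, 3 times in Msmo1 and 1 time in Insig1, and it is not among the letters of the Abca1 window, whose marked match is an E-box. The E-box was found in 6 of 21 members, among them Insig1 and Abca1, against 8.09% of all genes. The printed genes do not stand for all members. Acat2, without a CCAAT box in its window, was also lower in quiescent cells than in liver, although its level in liver is uncertain, as given below. Srebf2, with such a box, was higher, although that too depended on the scaling. The matches describe the letters of the windows and nothing of what binds there.

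Bulk values are TPM (estimated transcripts, corrected for transcript length and scaled to the same sum in each library), as the authors deposited them. The read depth behind TPM is not kept and is unknown. Pairs of libraries from the same group had correlations of 0.981 to 0.991 over 12931 genes on the log2 scale. Mitochondrial genes took 18.5% to 22.4% of TPM in liver and Mup genes, for the major urinary proteins that hepatocytes secrete, 15.4% to 32.8%, while mitochondrial genes took 2.81% to 5.67% in the stellate cell libraries. All 12 stellate markers reached 1 TPM in the cultures and in quiescent cells, and 12 hepatocyte markers summed to 24.4 to 28.2 TPM in UDP-glucose cultures, 9.96 to 27.9 TPM in control cultures, 17.8 to 29.5 TPM in quiescent cells and 68490 to 97580 TPM in liver. Markers of other sinusoidal cells were present in the sorted quiescent cells. There the 11 Kupffer cell markers summed to 262 to 336 TPM and the 11 sinusoidal endothelial markers to 343 to 988 TPM. Every one was at 1 TPM or more. Such a sum does not measure cell content. In control cultures 1 of the 11 Kupffer markers reached 1 TPM, yet the list summed to 141 to 179 TPM. Quiescent cells, liver and cultures stand in 3 separate tables, so when they are compared, what differs by table and what differs by group cannot be told apart.

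**Figure D1:**
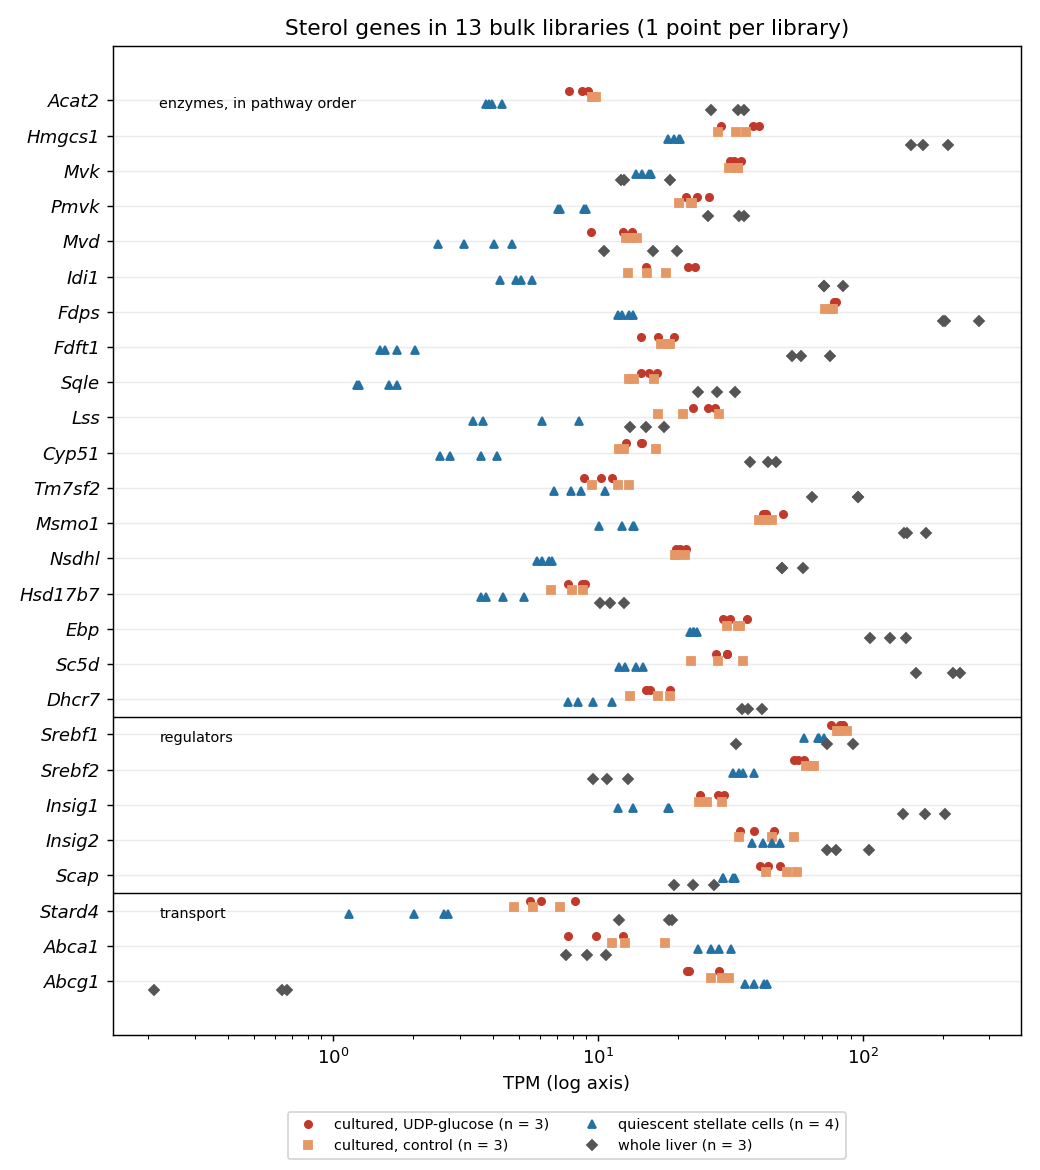
TPM of the 26 genes (log axis), 1 point per library, in UDP-glucose cultures (red circles), control cultures (orange squares), quiescent stellate cells (blue triangles) and whole liver (grey diamonds). For most enzymes quiescent cells lie lowest, both kinds of culture in between and liver highest, with Fdft1 at 1.5 to 2.04 TPM in quiescent cells and 53.7 to 75.0 TPM in liver, while Abca1 and Abcg1 lie highest in quiescent cells.

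UDP-glucose left no member with a detected change in cultured stellate cells. Of the 26 genes 0 passed the test, limma on log2(TPM + 1) with a Benjamini-Hochberg adjusted p below 0.05, against 0.609% of the 12161 genes tested (0.428% higher and 0.181% lower), and 0 of the 26 had an unadjusted p below 0.05, against 10.0% of all genes. Adjusted p-values of the members ran from 0.540 to 0.999. Their log2 fold changes, UDP-glucose over control, ran from −0.44 to 0.35 with a median of 0.027, and the median over all genes tested was −0.051. Precision differed between members: the 95% interval was −0.069 to 0.21 for Fdps and −0.30 to 0.017 for Srebf2, among the narrowest, and −0.94 to 0.049 for Abca1, the widest. No interval reached below that of Abca1 or above 0.78 (Idi1).

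The summed TPM of the 18 enzymes was 434, 450.1 and 453 in UDP-glucose cultures, against 406, 461 and 418 in control cultures. The 2 ranges overlap. The gene with the highest fold change was Idi1, which interconverts the isoprenoid units, at 15.1, 23.2 and 21.8 TPM in UDP-glucose cultures, against 12.9, 18.1 and 15.3 TPM in control cultures (log2 0.35, SE 0.18, limma adjusted p = 0.595). Of the 31-base words of Idi1 18.8% are shared with other genes, mainly Gm13502. That gene was at 2.02, 0 and 0 TPM in UDP-glucose cultures, against 0, 2.36 and 6.20 TPM in control cultures. At the other end was Abca1, which loads cholesterol onto apolipoprotein A-I, at 7.66, 12.4 and 9.84 TPM in UDP-glucose cultures, against 11.3, 17.9 and 12.6 TPM in control cultures (log2 −0.44, SE 0.21, adjusted p = 0.545). Libraries of the 2 groups overlap for both genes. Abcg1, which exports sterol to lipoprotein particles, was at 22.0, 28.7 and 21.6 TPM with UDP-glucose, against 29.3, 31.3 and 26.7 TPM without (log2 −0.27, adjusted p = 0.540).

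Among the regulators, Srebf2, which encodes SREBP2, was at 55.0, 57.0 and 59.8 TPM in UDP-glucose cultures, against 65.3, 63.5 and 60.8 TPM in control cultures, a difference of −0.14 on the log2 scale (SE 0.07, adjusted p = 0.550). Its 2 groups do not overlap. The same held for Acat2, which joins acetyl-CoA units, at 7.72, 8.69 and 9.18 TPM with UDP-glucose, against 9.54, 9.77 and 9.44 TPM without (log2 −0.15, adjusted p = 0.720). Fdps, which makes farnesyl diphosphate, was higher in every UDP-glucose library, at 78.4, 79.2 and 77.5 TPM, against 71.7, 75.5 and 76.7 TPM in control cultures (log2 0.070, adjusted p = 0.763). These were the members whose groups do not overlap, 1 higher and 2 lower, against 4.73% of all genes higher, 11.5% lower and 16.3% in both directions together. Srebf1, which encodes the SREBP1 isoforms that gene-level values cannot separate, was at 82.1, 84.2 and 75.5 TPM with UDP-glucose, against 79.8, 86.6 and 80.2 TPM without. Insig1 was at 24.3, 29.8 and 28.2 TPM with UDP-glucose, against 24.1, 29.4 and 25.8 TPM without, and Insig2 at 46.1, 38.7 and 34.2 TPM, against 34.1, 54.9 and 45.4 TPM. Stard4, a carrier of sterol between membranes, was at 5.50, 8.15 and 6.10 TPM with UDP-glucose, against 4.80, 7.16 and 5.67 TPM without. Each of these 4 genes overlaps between the groups.

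No gene of the 5 related lists passed the test in this comparison either. These were isoprenoid branches (11 tested), SREBP processing (11), sterol storage, uptake and efflux (13), bile acid and oxysterol synthesis (4) and fatty acid synthesis driven by SREBP1 (14). Their median log2 fold changes were −0.044, −0.11, −0.10, −0.24 and −0.040 in that order, beside −0.051 for all genes. The member of these lists with the lowest adjusted p was Cyp27a1, the sterol 27-hydroxylase, at a log2 fold change of −0.38 (adjusted p = 0.0783).

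**Figure D2:**
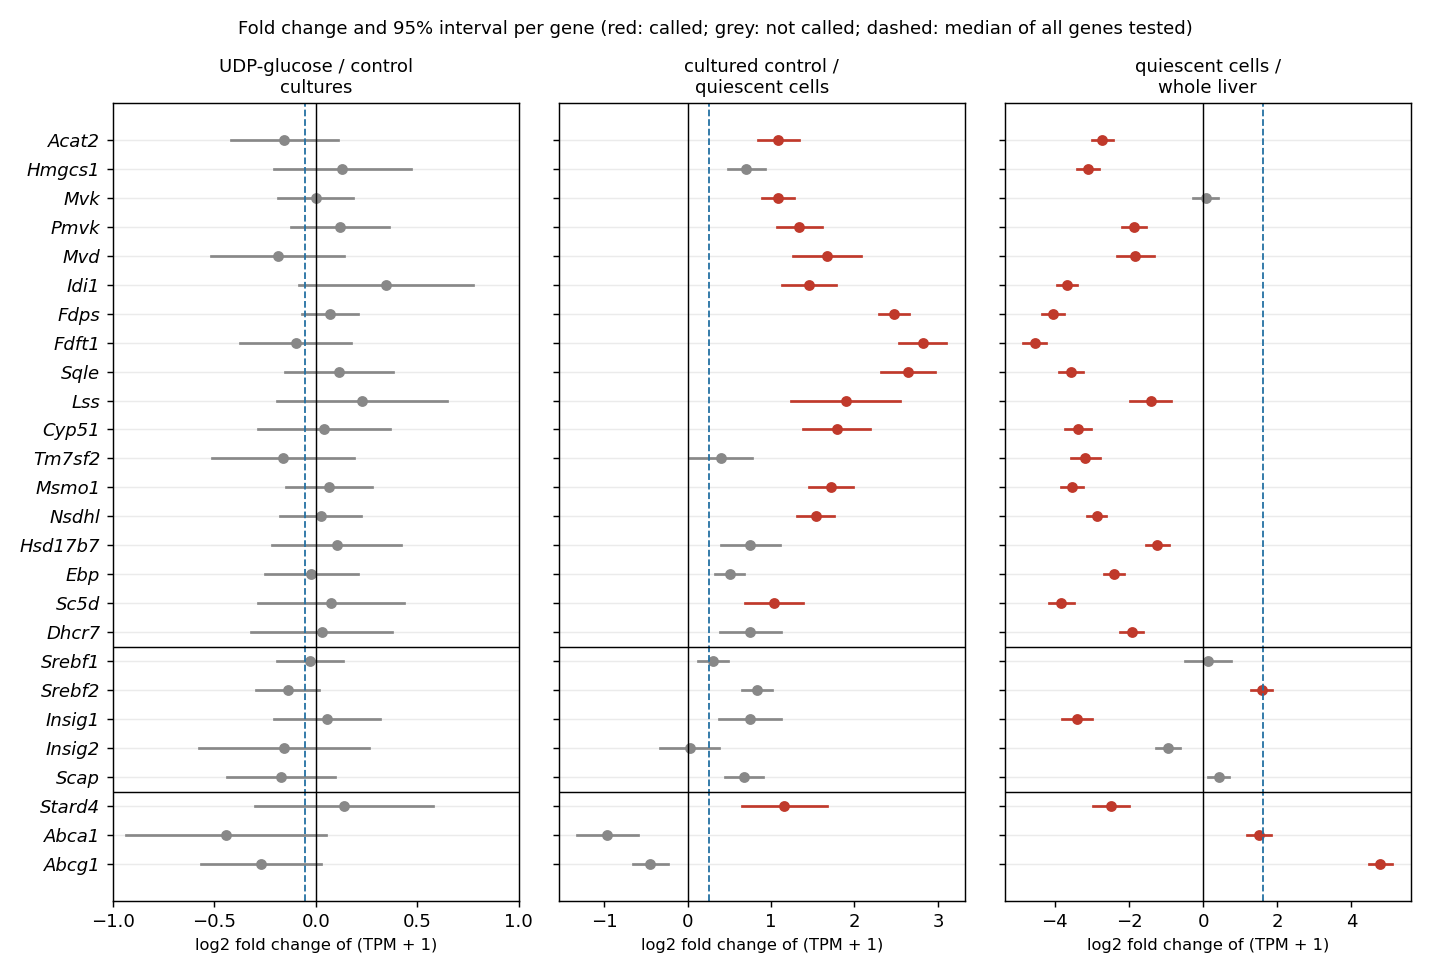
Log2 fold change of TPM + 1 with its 95% interval for each gene, in UDP-glucose over control cultures, control cultures over quiescent cells and quiescent cells over liver. Red points passed the test of their comparison, grey points did not, and the dashed line is the median of all genes tested. No point is red in the first panel, 14 lie to the right in the second, and 19 lie to the left and 3 to the right in the third.

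Cultured control cells carried more transcript of the synthesis enzymes than quiescent cells. Of the 18 enzymes, 13 rose (limma adjusted p below 0.05 and a log2 fold change of at least 1), and none fell. Stard4 rose with them, which makes 14 of 26 members higher, against 18.6% of the 12537 genes tested, and 0 of 26 lower, against 13.2% (31.8% in either direction). At an unadjusted p below 0.05, without a minimum fold, 25 members differed in either direction, against 73.3% of all genes. The median log2 fold change was 1.40 over the enzymes and 0.26 over all genes. The summed enzyme TPM was 406, 461 and 418 in control cultures, against 157, 156, 153 and 159 in quiescent cells, a ratio of means of 2.74. Strain, sort and table differ along with culture in this comparison and cannot be told apart from it, and the control libraries are the ones used against UDP-glucose.

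The largest rises lay at the steps around squalene. Fdft1, squalene synthase, was at 18.3, 18.6 and 17.3 TPM in control cultures, against 2.04, 1.57, 1.73 and 1.5 TPM in quiescent cells, a log2 fold change of 2.82 (SE 0.12, adjusted p = 1.49e-07). Of the exon bases of Fdft1, 18.3% overlap Ctsb on the opposite strand, and strand use is not given. Of its 31-base words 14.3% are shared with Gm6781, which was listed at 0 in every library. Sqle, the squalene epoxidase, was at 13.1, 16.2 and 13.7 TPM in control cultures, against 1.25, 1.73, 1.62 and 1.23 TPM in quiescent cells (log2 2.64, SE 0.14, adjusted p = 4.98e-07). The ratio of mean TPM was 10.6 for Fdft1 and 9.82 for Sqle, more than the log2 values say, since adding 1 TPM shrinks the change of low genes. Fdps was at 71.7, 75.5 and 76.7 TPM in control cultures, against 12.3, 13.0, 11.8 and 13.5 TPM in quiescent cells (log2 2.47, SE 0.08, adjusted p = 2.60e-08). For all 3 genes every culture library lies above every quiescent one.

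Some of the steps after squalene rose as well. Lss, which closes the sterol ring system, was at 20.9, 28.5 and 16.8 TPM in control cultures, against 8.44, 6.13, 3.66 and 3.36 TPM in quiescent cells, with the widest spread among the enzymes (log2 1.89, SE 0.29, adjusted p = 0.000320). Cyp51, the lanosterol 14-demethylase, was at 12.0, 16.5 and 12.5 TPM in control cultures, against 2.53, 2.74, 3.61 and 4.13 TPM in quiescent cells (log2 1.79, SE 0.18). Msmo1, a sterol C4-methyl oxidase, was at 42.7, 45.3 and 40.5 TPM in control cultures, against 13.6, 10.1, 12.3 and 13.5 TPM in quiescent cells (log2 1.72, SE 0.11). In each of these 3 genes the lowest culture library lies above the highest quiescent one. Nsdhl, the dehydrogenase that follows Msmo1 in removing the C4 methyl groups, was at 19.6, 21.3 and 19.5 TPM in control cultures, against 5.89, 6.11, 6.69 and 6.52 TPM in quiescent cells (log2 1.53, SE 0.10). Mvd, which makes the first isoprenoid unit, was at 12.7, 13.3 and 14.0 TPM in control cultures, against 4.74, 3.10, 4.03 and 2.47 TPM in quiescent cells (log2 1.67, SE 0.18). The groups do not overlap for these 2 genes either. The other enzymes that rose were Idi1 (log2 1.45), Pmvk (1.34), Acat2 (1.09), Mvk (1.08) and Sc5d (1.03).

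Of the 5 enzymes that missed the call, Hmgcs1 is an early step, and Tm7sf2, Hsd17b7, Ebp and Dhcr7 act after squalene. Hmgcs1, which makes HMG-CoA, differed by 0.71 on the log2 scale (adjusted p = 0.000189), below the minimum fold, and 12.1% of its exon bases overlap the antisense Gm48342. Also below the minimum were Dhcr7, which reduces 7-dehydrocholesterol (0.75), Hsd17b7 (0.75) and Ebp, the sterol isomerase (0.51). Tm7sf2, a sterol reductase, was at 11.9, 13.1 and 9.50 TPM in control cultures, against 7.86, 6.81, 10.6 and 8.60 TPM in quiescent cells (log2 0.40, adjusted p = 0.0503). It is the enzyme whose groups overlap, 12.1% of its exon bases overlap Vps51, and 12.9% of its 31-base words are shared, mainly with that gene. Across all members, 22 did not overlap and were higher in culture, against 46.4% of all genes, and 2 did not overlap and were lower, against 23.6% (70.0% in both directions together).

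None of the 5 regulators reached the minimum fold. Srebf2 was at 65.3, 63.5 and 60.8 TPM in control cultures, against 35.3, 38.9, 32.4 and 34.0 TPM in quiescent cells (log2 0.83, SE 0.08, adjusted p = 1.72e-05). Srebf1 was at 79.8, 86.6 and 80.2 TPM in control cultures, against 67.9, 70.9, 59.6 and 67.4 TPM in quiescent cells (log2 0.30, SE 0.08, adjusted p = 0.00638). In both genes every culture library lies above every quiescent one. Insig1 was at 24.1, 29.4 and 25.8 TPM in control cultures, against 13.5, 18.5, 18.3 and 11.9 TPM in quiescent cells (log2 0.75, SE 0.16, adjusted p = 0.00276). Insig2, the member of the pair that is not a strong SREBP target, was at 34.1, 54.9 and 45.4 TPM in control cultures, against 45.3, 41.8, 48.4 and 38.2 TPM in quiescent cells (log2 0.023, adjusted p = 0.901). The ratio of Insig1 to Insig2 within a library was 0.536 to 0.706 in control cultures, against 0.299 to 0.441 in quiescent cells. Scap differed by 0.67 (adjusted p = 0.000294).

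The 2 exporters lay lower in culture, short of the minimum fold. Abca1 was at 11.3, 17.9 and 12.6 TPM in control cultures, against 28.6, 26.6, 23.9 and 31.7 TPM in quiescent cells, a log2 fold change of −0.96 (SE 0.16, adjusted p = 0.000537) that missed the minimum. It passed with a pseudocount of 0.1 (−1.01) and after median-of-ratios rescaling (−1.21), and without control replicate 2 (−1.14). Abcg1 was at 29.3, 31.3 and 26.7 TPM in control cultures, against 35.8, 43.3, 38.7 and 42.3 TPM in quiescent cells (log2 −0.44, SE 0.09, adjusted p = 0.00239). For both exporters every culture library lies below every quiescent one. Kupffer cell and endothelial markers moved with them, since 1 of 11 in each list reached 1 TPM in control cultures, and the Kupffer lectin Clec4f was at 0 TPM in all 3 control libraries and at 41.8, 19.6, 30.4 and 39.9 TPM in quiescent cells. The Kupffer list summed to 141 to 179 TPM in control cultures against 262 to 336 TPM in quiescent cells. For the endothelial list the sums were 49.2 to 60.1 TPM against 343 to 988 TPM. In control cultures each sum lay mostly in the 1 marker that reached 1 TPM. The part of these cell types in the result was not tested. Leaving out quiescent replicate 2, which had the highest endothelial sum and the lowest Clec4f level, again gave 14 members higher and 0 lower. The remaining quiescent libraries kept endothelial sums of 343 TPM or more, so these counts do not test the part of such cells. Stard4, which rose, was at 4.80, 7.16 and 5.67 TPM in control cultures, against 2.02, 2.71, 2.62 and 1.14 TPM in quiescent cells (log2 1.16, SE 0.22, adjusted p = 0.00142). After median-of-ratios rescaling, which moved the median of all genes to 0.014, 10 enzymes were called higher, and Acat2 (0.86), Mvk (0.83), Sc5d (0.78) and Stard4 (0.95) missed the minimum.

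The related lists are read beside the 18.6% of all genes called higher and the 13.2% called lower. In the isoprenoid list 1 of 11 genes rose, Rce1, a protease of prenylated proteins (log2 1.40). In the SREBP processing list 1 of 11 rose, Ufd1, a factor of protein extraction from the endoplasmic reticulum (1.51), and Mbtps1 and Mbtps2, the proteases that cut SREBP, differed by −0.23 (adjusted p = 0.0776) and 0.75 (adjusted p = 0.00426), short of the minimum. In the storage and efflux list 2 of 13 rose, Soat1 (1.92) and Soat2 (3.84), which esterify cholesterol for storage, and 1 fell, Mylip (−1.63), an LXR target that marks lipoprotein receptors for breakdown. In the fatty acid list 3 of 13 rose, the desaturase Scd1 (1.70), the elongase Elovl6 (1.09) and Me1 (1.03), which supplies NADPH. In the bile acid list 1 of 4 fell, Cyp27a1 (−1.15). The medians of these lists were 0.33, 0.22, 0.42, 0.35 and −0.35 in that order, beside 0.26 for all genes. After median-of-ratios rescaling, the storage and efflux list gave 2 up and 3 down, the bile acid list 0 up and 2 down and the fatty acid list 1 up and 0 down.

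Against whole liver, quiescent stellate cells had lower transcript levels of most synthesis enzymes. Of 26 members 19 fell, against 10.9% of the 12643 genes tested, and 3 rose, against 67.0% (77.9% in either direction). At an unadjusted p below 0.05, without a minimum fold, 24 members differed, against 92.9% of all genes. The groups do not overlap for 4 members that were higher, against 77.2% of all genes, and for 20 that were lower, against 13.9% (91.1% together). The members that fell were 17 of the 18 enzymes, Insig1 and Stard4, and those that rose were Srebf2, Abca1 and Abcg1. The median log2 fold change was −2.98 over the enzymes and 1.62 over all genes. In summed TPM the enzymes stood at 157, 156, 153 and 159 in quiescent cells, against 1227, 1349 and 1593 in liver, 8.89 times the quiescent mean. Liver is a mixture, so a lower level there can mean fewer cells of a type or less RNA per cell, which bulk values cannot tell apart. The quiescent libraries are the same as in the comparison with cultures, so the 2 sets of fold changes are not independent of each other.

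Fdft1 showed the largest fall, at 2.04, 1.57, 1.73 and 1.5 TPM in quiescent cells, against 58.3, 53.7 and 75.0 TPM in liver (log2 −4.54, SE 0.14, limma adjusted p = 1.15e-10). Fdps was at 12.3, 13.0, 11.8 and 13.5 TPM in quiescent cells, against 204, 200.1 and 275 TPM in liver (log2 −4.04, SE 0.13). Of the exon bases of Fdps 26.7% overlap Gm43738, which was listed at 0 in all 4 quiescent libraries and at 0.308, 0.210 and 1.0 TPM in liver, and 27.9% of its 31-base words are shared with Gm43738 and other genes. Sc5d, which sets the C5 double bond of the sterol ring, was at 13.9, 14.8, 12.0 and 12.6 TPM in quiescent cells, against 159, 232 and 219 TPM in liver (log2 −3.82, SE 0.15). Idi1 was at 4.26, 5.62, 4.89 and 5.12 TPM in quiescent cells, against 71.3, 71.4 and 83.7 TPM in liver (log2 −3.68, SE 0.12), with 18.8% of its 31-base words shared with other genes. In none of these 4 genes do the groups overlap. Sqle was at 1.25, 1.73, 1.62 and 1.23 TPM in quiescent cells, against 28.1, 23.8 and 32.8 TPM in liver (log2 −3.57, SE 0.14). Msmo1 was at 13.6, 10.1, 12.3 and 13.5 TPM in quiescent cells, against 143, 146 and 172 TPM in liver (log2 −3.54, SE 0.13).

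The remaining enzymes that fell ranged from −3.37 (Cyp51), −3.17 (Tm7sf2) and −3.10 (Hmgcs1) to −1.41 (Lss) and −1.23 (Hsd17b7). Acat2 fell by 2.71, but 43.7% of its 31-base words also occur in Acat3, a near-copy that was at 0 to 0.239 TPM in quiescent cells, against 122, 164 and 171 TPM in liver, so its level in liver is uncertain. Mvk, the mevalonate kinase, was the enzyme that did not pass the test, at 13.9, 14.6, 15.5 and 15.8 TPM in quiescent cells, against 12.2, 12.5 and 18.6 TPM in liver (log2 0.071, SE 0.15, adjusted p = 0.655). Its groups overlap. On a scale set relative to the median of all genes, Mvk lay at −1.55, and its place in the order of all genes was the 18th percentile, the highest among the enzymes. The 17 others lay between percentiles 3.46 and 10.1. After median-of-ratios rescaling all 18 enzymes were called lower, with Mvk at −1.74.

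Among the regulators, Insig1 fell and Srebf2 rose, and the direction of Srebf2 depended on the scaling. Insig1 was at 13.5, 18.5, 18.3 and 11.9 TPM in quiescent cells, against 142, 172 and 204 TPM in liver (log2 −3.40, SE 0.18, adjusted p = 9.06e-09). Insig2 was at 45.3, 41.8, 48.4 and 38.2 TPM in quiescent cells, against 79.0, 105 and 72.8 TPM in liver, a log2 fold change of −0.95 (SE 0.15, adjusted p = 8.58e-05) that missed the minimum. It passed after median-of-ratios rescaling (−2.85) and without mitochondrial and Mup genes (−1.67). Within a library, the ratio of Insig1 to Insig2 was 0.299 to 0.441 in quiescent cells, against 1.63 to 2.81 in liver, so Insig2 was the more abundant of the pair in stellate cells and Insig1 in liver. Srebf2 was at 35.3, 38.9, 32.4 and 34.0 TPM in quiescent cells, against 9.58, 10.8 and 12.9 TPM in liver (log2 1.59, SE 0.13, adjusted p = 3.06e-07). This was close to the median of all genes, 1.62, and Srebf2 was at −0.25 after median-of-ratios rescaling and, at 0.91, below the minimum without mitochondrial and Mup genes. Srebf1 was at 67.9, 70.9, 59.6 and 67.4 TPM in quiescent cells, against 33.1, 91.2 and 73.1 TPM in liver, where 1 library lies below and 2 lie above all quiescent ones (log2 0.13, SE 0.28, adjusted p = 0.658). The ratio of Srebf2 to Srebf1 was 0.504 to 0.548 in quiescent cells, against 0.118 to 0.289 in liver. Scap was at 32.7, 29.5, 29.7 and 32.2 TPM in quiescent cells, against 19.3, 27.4 and 22.8 TPM in liver (log2 0.42, SE 0.13, adjusted p = 0.0111), below the minimum fold, and 13.2% of its exon bases overlap 5830462I19Rik on the opposite strand. After median-of-ratios rescaling Srebf1 was at −1.78 and Scap at −1.45.

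**Figure D3:**
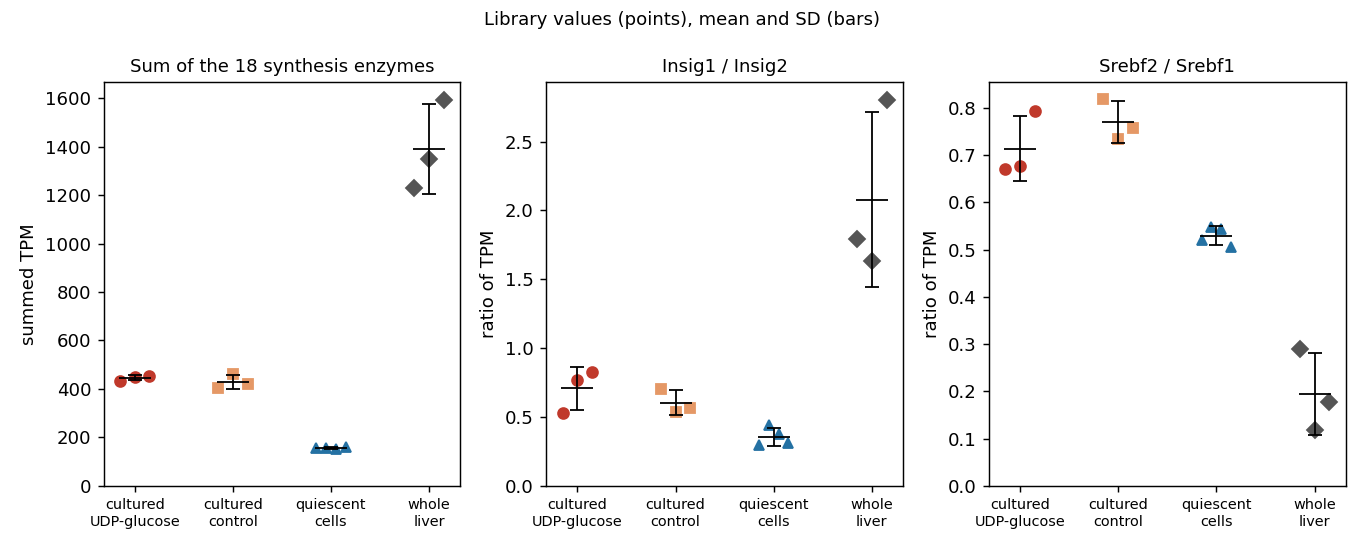
Summed TPM of the 18 enzymes, the TPM ratio of Insig1 to Insig2 and that of Srebf2 to Srebf1, 1 point per library with mean and SD bars (n = 3 UDP-glucose, 3 control, 4 quiescent and 3 liver libraries). The enzyme sum was 446 ± 10.3 TPM in UDP-glucose cultures, 428 ± 29.2 TPM in control cultures, 156 ± 2.68 TPM in quiescent cells and 1389.8 ± 186 TPM in liver, and liver is highest for Insig1 over Insig2 and lowest for Srebf2 over Srebf1.

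In the transport group, Abcg1 had the largest fold change, at 35.8, 43.3, 38.7 and 42.3 TPM in quiescent cells, against 0.210, 0.665 and 0.640 TPM in liver (log2 4.78, SE 0.14, adjusted p = 8.74e-11). Its fold change stood at percentile 94.2 of all genes, and it was called higher under every alternative processing tried. In liver it averaged 0.505 TPM, so it passed the filter of 1 TPM through its level in quiescent cells. The ratio of mean TPM was 79.2, more than the log2 value says, since adding 1 TPM shrinks such a change. The size of the fold change and its percentile thus depend on the added 1 TPM. Abca1 was at 28.6, 26.6, 23.9 and 31.7 TPM in quiescent cells, against 7.55, 10.6 and 9.03 TPM in liver (log2 1.51, SE 0.14, adjusted p = 1.17e-06). Stard4 was at 2.02, 2.71, 2.62 and 1.14 TPM in quiescent cells, against 12.0, 18.5 and 19.1 TPM in liver (log2 −2.49, SE 0.22, adjusted p = 6.50e-07). The groups do not overlap for these 3 genes. The rises of Abca1 and Srebf2 stood at percentiles 46.6 and 48.8 of all genes, close to the median. Without mitochondrial and Mup genes Abca1 too missed the minimum, at 0.85, and after median-of-ratios rescaling, which moved the median of all genes to −0.033, it turned to −0.30. Under that rescaling 1 member was called higher, Abcg1, and 23 were called lower. Kupffer and endothelial marker sums were higher in quiescent cells than in liver as well, at 262 to 336 against 63.4 to 119 TPM and 343 to 988 against 44.7 to 109 TPM, and their part in the levels of the exporters was not tested.

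The related lists are read beside the 67.0% of all genes called higher and the 10.9% called lower. In the isoprenoid list 9 of 11 genes rose, among them Ggps1, which makes geranylgeranyl diphosphate (log2 2.90), and none fell. In the SREBP processing list 6 of 11 rose, among them Mbtps1 (2.90) and Mbtps2 (2.34), and 1 fell, Pgrmc1 (−2.31). In the storage and efflux list 8 of 15 rose, led by Mylip (5.84) and Soat1 (3.85), and 6 fell, led by the hepatic exporters Abcg5 (−5.04) and Abcg8 (−4.41). All 9 tested genes of bile acid synthesis fell, with Cyp7a1, the rate-limiting enzyme, at −4.29 and Cyp8b1 at −7.68. In the fatty acid list 3 of 14 rose and 5 fell, with the desaturases on opposite sides, Scd2 at 5.49 and Scd1 at −5.84. The medians were 1.76, 1.31, 1.18, −5.51 and −0.13 in that order, beside 1.62 for all genes. After median-of-ratios rescaling the same lists gave 3 up and 1 down, 1 up and 5 down, 2 up and 7 down, 0 up and 9 down, and 1 up and 10 down.

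In the single-cell library the enzyme transcripts were concentrated in hepatocyte-like cells. The library held 5063 barcodes and 12101368 UMIs (unique molecular identifiers, 1 per captured molecule), and 4808 cells passed the filters. Classes were rebuilt by clustering and named "-like" from marker genes, and 4 clusters stayed unnamed. With 1 library there is no test, and the exact 95% intervals cover counting error only. In 491 hepatocyte-like cells, the 18 enzymes together stood at 2778 CPM (a share of UMIs scaled in the way of TPM but without transcript length, interval 2692 to 2865), against 195 CPM in 345 stellate-like cells (170.3 to 222), 240.5 CPM in 422 Kupffer-like cells and 234 CPM in 2105 sinusoidal endothelial-like cells (219 to 249). After hepatocyte-like cells came 74 plasmacytoid dendritic cell-like cells, a class of interferon-producing immune cells, at 925 CPM (813 to 1047), and 111 cells of the dendritic and other MHC class II myeloid-like class at 633 CPM (555 to 719). Thinned to 1000 UMIs per cell, 91.1% of hepatocyte-like cells, 50% of plasmacytoid dendritic cell-like cells and 16.6% of stellate-like cells had at least 1 enzyme UMI, against 98.0%, 79.7% and 45.8% before thinning at median depths of 1861, 3411.5 and 3170 UMIs. Thinning left out 18, 0 and 2 cells of these classes.

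Of all kept cells, hepatocyte-like cells among them, 66.4% carried a UMI of Alb or Apoa1, genes of hepatocyte plasma proteins. In other classes such UMIs may come from free RNA or from doublets, which were not removed, and these were not told apart. If all enzyme UMIs of stellate-like cells had come with Alb at the hepatocyte-like ratio, 61.4 would be found, and 226 were. Apoa1 itself gave 223 UMIs against 205 by that ratio. For single enzymes the distance from that ratio was uneven. Mvk had 24 UMIs against 0.722 and Ebp 43 against 4.66, while Idi1 had 11 against 9.07, Fdft1 3 against 2.57 and Cyp51 4 against 3.18. For those last 3 the stellate-like counts are near the level given by that ratio. Such a ratio takes free RNA to have the make-up of hepatocyte-like cells, which was not measured. Where the enzyme UMIs came from was not tested. In plasmacytoid dendritic cell-like cells the enzymes had 248 UMIs against 7.96. Apoa1 gave 50 UMIs there against 26.6, so for Apoa1 the ratio to Alb fell short in this class. Fdps was highest among the enzymes there, with 59 UMIs, 220.0 CPM (167 to 284), against 396 CPM (364 to 429.6) in hepatocyte-like and 13.8 CPM (7.89 to 22.4) in stellate-like cells.

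**Figure D4:**
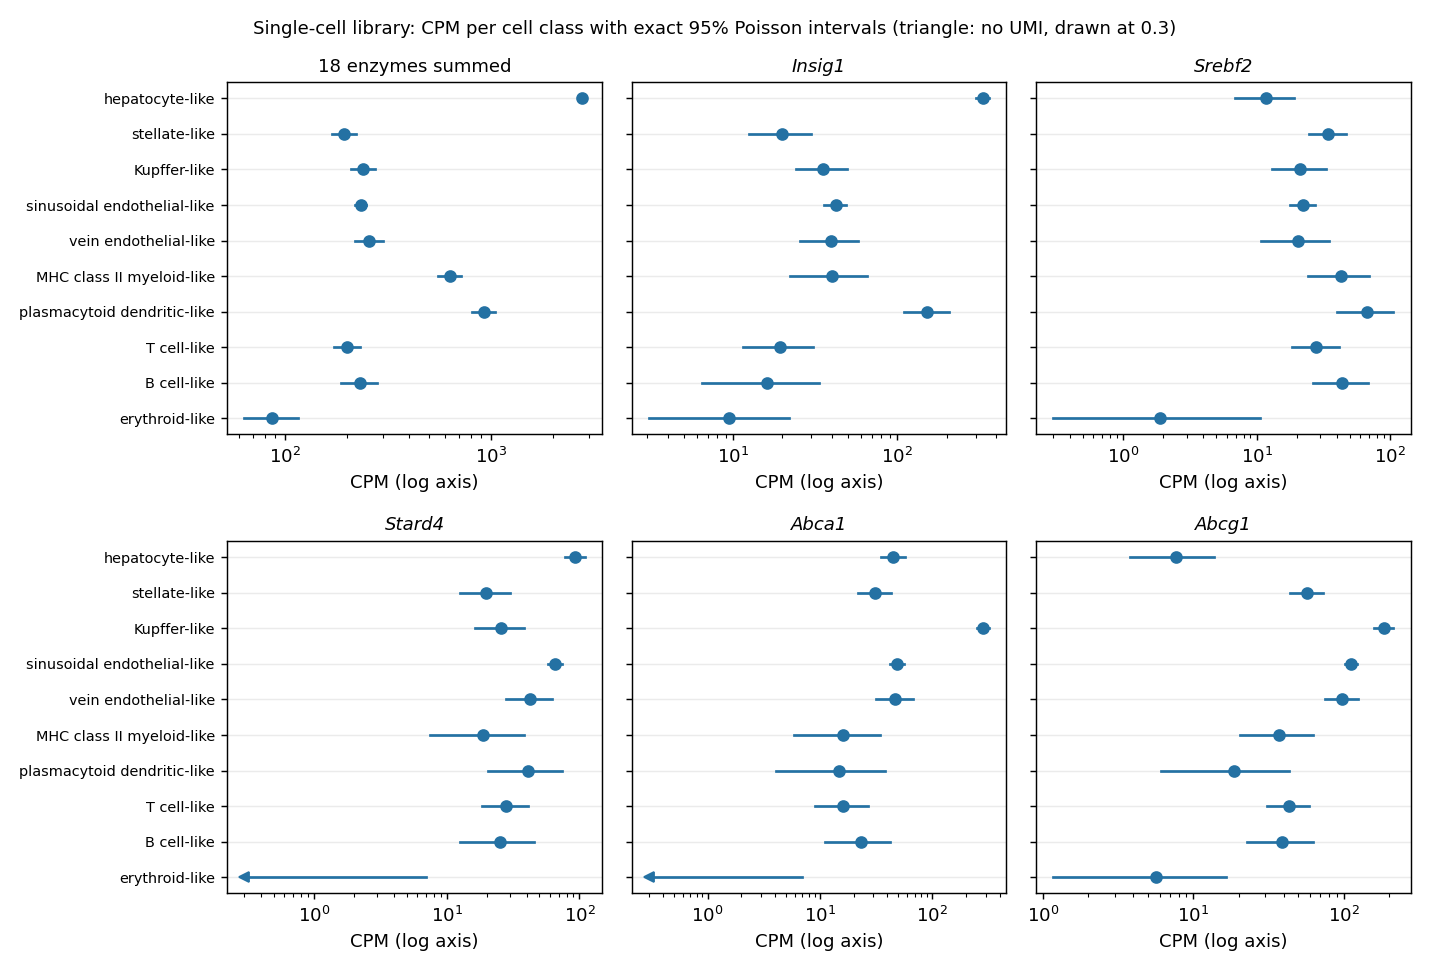
CPM (log axis) of the 18 summed enzymes and of Insig1, Srebf2, Stard4, Abca1 and Abcg1 in 10 cell classes of the single-cell library, with exact 95% Poisson intervals and a triangle for 0 UMIs. Hepatocyte-like cells are highest for the enzymes (2778 CPM), Insig1 (332 CPM) and Stard4 (92.5 CPM), and of these 10 classes Kupffer-like cells are highest for Abca1 (286 CPM) and Abcg1 (185 CPM).

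Of the named classes, hepatocyte-like cells had the highest levels of Insig1, Insig2, Srebf1 and Stard4, but not of Srebf2, Abca1 and Abcg1. Insig1 was 332 CPM (303 to 363) in hepatocyte-like, 153 CPM (109.7 to 207) in plasmacytoid dendritic cell-like and 19.8 CPM (12.6 to 29.8) in stellate-like cells. In the stellate-like class, 23 UMIs compare with 7.33 at the hepatocyte-like ratio to Alb. Insig2 was 52.6 CPM (40.2 to 67.6) in stellate-like cells, 121 CPM (104 to 140.4) in hepatocyte-like cells and 7.46 CPM (0.903 to 26.9) in plasmacytoid dendritic cell-like cells, the last from 2 UMIs. Stellate-like cells thus had more Insig2 than Insig1 UMIs, 61 against 23, and hepatocyte-like cells more Insig1, 477 against 174. Srebf2 was 34.5 CPM (24.6 to 47.0) in stellate-like and 67.1 CPM (39.8 to 106) in plasmacytoid dendritic cell-like cells, above the 11.8 CPM (6.89 to 18.9) of hepatocyte-like cells. Srebf1 was 32.8 CPM (23.2 to 45.0) in stellate-like and 68.8 CPM (56.0 to 83.8) in hepatocyte-like cells. The order of these 2 classes was thus opposite for Srebf2 and Srebf1, with intervals that do not overlap. Abcg1 was 56.9 CPM (44.0 to 72.4) in stellate-like, 185 CPM (159 to 215) in Kupffer-like and 112 CPM (102 to 123) in sinusoidal endothelial-like cells, against 7.65 CPM (3.82 to 13.7) in hepatocyte-like cells. Abca1 was 31 CPM (21.7 to 43.0) in stellate-like cells and 286 CPM (253 to 323) in Kupffer-like cells. It was 48.5 CPM (41.9 to 55.9) in sinusoidal endothelial-like cells and 45.2 CPM (34.9 to 57.6) in hepatocyte-like cells. Stellate-like cells thus did not exceed hepatocyte-like cells for Abca1. The bulk comparison is unlike this one, since liver is a mixture of cell types and the rise of Abca1 there depended on the scaling. Stard4 was 19.8 CPM (12.6 to 29.8) in stellate-like, 92.5 CPM (77.4 to 109.6) in hepatocyte-like and 65.3 CPM (57.5 to 73.8) in sinusoidal endothelial-like cells.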

How the data were processed

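RNA was measured in 13 bulk libraries of 4 groups and in 1 single-cell library, grouped by the labels. Bulk values were deposited as gene-level TPM in 3 tables of 35197 rows each, of which 26 held dates in place of symbols, carried up to 0.319% of TPM and were dropped. Single-cell values were deposited as whole-number UMI counts. The submitters' processing notes name bcl2fastq 2.19, kallisto 0.44.0, DESeq2, Cell Ranger and the builds GRCm38 and mm10. The sources used here do not state the handling of strand.

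Differences were tested with limma 3.58.1 (R 4.3.3, mean-variance trend) on log2(TPM + 1) for genes averaging 1 TPM or more over the compared libraries. P-values are two-sided and adjusted by Benjamini-Hochberg over all those genes. The call needed an adjusted p below 0.05 and, between tables, also a log2 fold change of 1 or more in size. The code was tested on simulated data.

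Cells with 500 UMIs and 200 genes or more and up to 20% mitochondrial UMIs were clustered in scanpy 1.11.5 (Python 3.11.15; 2000 variable genes, 30 components, 15 neighbours, Leiden resolution 1). Naming a cluster required 3 markers of 1 type in its top 50 genes, 2 times the count of any other type and no other type leading its top 10. This named 18 of 22 clusters. Scrublet marked 1 cell (0.0208%) and so did not work, and no doublets were removed. Exon overlap and shared 31-base words (GENCODE M21, GRCm38) are given above 10%.

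The members, lists, markers and tests were chosen with earlier results of these data known. Values per library are printed for Srebf1, Srebf2, Insig1, Insig2, Stard4, Abca1 and Abcg1, and for up to 8 members with the largest and 4 with the smallest fold change between tables. Those of Idi1, Acat2 and Fdps with UDP-glucose were added after their values were seen. Alternatives were other pseudocounts, filters, scalings and fits, leaving out each library, and other cell filters and resolutions.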

Additional observations from a re-analysis of the deposited data

How the results depend on the processing

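The count of 0 members called with UDP-glucose held under all 13 alternatives. The count at an unadjusted limma p below 0.05 did not stay at 0 under all of them. It was 1 after median-of-ratios rescaling, 2 in a joint fit of all 13 libraries and 2 without control replicate 1. Against liver, 1 member in place of 3 was called higher after median-of-ratios rescaling and 1 without mitochondrial and Mup genes. Against quiescent cells, 1 member in place of 0 was called lower in control cultures with a pseudocount of 0.1 and 1 after rescaling, and leaving out 1 library gave 0 to 1 (Abca1). The median of the enzymes against liver was −3.02 to −2.88 without 1 library. With at most 10% mitochondrial UMIs the hepatocyte-like enzyme level was 2492 CPM, not 2778. The cause was not tested.

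Signs reversed as follows. Against liver, rescaling gave −1.74 for Mvk, −1.78 for Srebf1, −0.25 for Srebf2, −1.45 for Scap and −0.30 for Abca1, and leaving out mitochondrial and Mup genes −0.61 for Mvk, −0.58 for Srebf1 and −0.28 for Scap. In control cultures against quiescent cells these gave −0.24 and −0.0077 for Insig2. With UDP-glucose they gave 0.048 and 0.0068 for Mvk, and rescaling 0.026 for Ebp and 0.020 for Srebf1. Without 1 library each, UDP-glucose values ran from −0.039 to 0.032 (Mvk), −0.044 to 0.17 (Cyp51), −0.014 to 0.11 (Msmo1), −0.0049 to 0.062 (Nsdhl), −0.10 to 0.041 (Ebp), −0.087 to 0.23 (Sc5d), −0.11 to 0.13 (Dhcr7), −0.061 to 0.017 (Srebf1), −0.0092 to 0.14 (Insig1), −0.33 to 0.0024 (Insig2) and −0.0028 to 0.27 (Stard4). Against liver they ran from −0.028 to 0.26 (Mvk) and −0.30 to 0.42 (Srebf1), and between control cultures and quiescent cells from −0.13 to 0.20 (Insig2). Calls changed for Insig2 against liver (−1.06 to −0.80), which passed without quiescent replicate 3 or liver replicate 3. In control cultures against quiescent cells, Sc5d (0.88 to 1.19) was lost and Abca1 (−1.14 to −0.83) passed without control replicate 2 or quiescent replicate 3, and Stard4 (0.99 to 1.27) was lost without quiescent replicate 4.

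No paired analysis was possible because the labels give the groups no shared replicate numbers. At a mean of at least 5 TPM, Stard4 was not tested between cultures and quiescent cells. At resolution 0.5 no cluster was named T cell-like or cholangiocyte-like. The unknown bulk depth and 3 or 4 libraries per group limit small differences, and few UMIs limit single enzymes in stellate-like cells.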
